A study of Mus musculus with 18 samples.

Results

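Neuropeptide precursor genes encode the proteins from which neurons cut their peptide transmitters, and 10 of them were followed through 3 brain regions of mice given the dopaminergic toxin MPTP or saline. The genes were chosen by name: Penk, Pdyn, Tac1, Npy, Sst, Vip, Cck, Pmch, Pomc and Cartpt. They were measured by 12 of the 45101 probe sets on the array, and they are 10 of the 18194 genes to which a probe set could be assigned. Tac1 and Pomc had 2 probe sets each and the other members 1. Males of the strain C57BL/6J, 14 weeks of age, were given MPTP at 30 mg/kg intraperitoneally every day over 5 days, or saline by the same route, and were killed 4 days after their last dose. Each treatment had 3 animals. Their frontal cortex, striatum and midbrain were hybridised separately, which makes 18 arrays in 6 groups of 3. All groups share the strain and sex, and the labels name no transgene. MPTP was given to the whole animal, so that no group isolates the response of one cell type.

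Neuropeptides are made as long precursors, which convertases and carboxypeptidases cut and trim inside dense-core granules before release, and the peptides then act mostly on G protein-coupled receptors. In the striatum the spiny projection neurons carry peptides by pathway: those that project to the substantia nigra hold Tac1 and Pdyn, and those that project to the globus pallidus hold Penk. Loss of striatal dopamine is classically known in rodents to raise Penk RNA and lower Tac1 RNA there. Npy, Sst and Vip are made by GABAergic interneurons of cortex and, for Npy and Sst, of striatum, while Cck is made by both excitatory and inhibitory cortical neurons and by some dopaminergic neurons of the midbrain. Pmch is the precursor of a peptide of the lateral hypothalamus, Pomc is made in the arcuate nucleus and the pituitary, and Cartpt is strongly expressed in the Edinger-Westphal nucleus of the midbrain.

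Several of these genes are textbook targets of cyclic AMP signalling through the cyclic AMP response element, and Sst is the gene in which that element was described. The promoters of 9 members were found in RefSeq (GRCm38.p6), in 10 windows of 300 bases from 250 before to 50 after the start site, with 2 start sites for Pdyn. The 8-base element TGACGTCA was found in 2 of them, those of Cartpt, with its first base at -112 from the start site, and Sst, at -48, and 1.79% of the 32851 mouse promoters of that length held it. Its shorter core TGACG, which the full element contains, was found on either strand in 5 members, Cartpt, Cck, Sst, Tac1 and Vip, and in 20.8% of all promoters. The letters TATAAA, on the gene's strand, were found in Pmch, Pomc and Vip, and in 8.32% of all promoters. The 150 bases from 120 before to 30 after the start site are shown for Tac1, Pmch, Cck, Vip and Cartpt, whose differences after MPTP were the largest among the members in striatum or midbrain, and for Sst, which holds the full element. They are written 5′ to 3′ on the gene's strand. Capitals mark the full element, the core (read as CGTCA where it lies on the other strand) and TATAAA.
Tac1: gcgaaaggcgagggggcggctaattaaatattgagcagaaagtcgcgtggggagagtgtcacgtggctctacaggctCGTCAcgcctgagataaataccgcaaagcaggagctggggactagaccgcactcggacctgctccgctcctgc
Pmch: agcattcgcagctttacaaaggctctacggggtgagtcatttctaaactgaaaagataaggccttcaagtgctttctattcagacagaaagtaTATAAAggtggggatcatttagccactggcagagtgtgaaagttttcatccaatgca
Cck: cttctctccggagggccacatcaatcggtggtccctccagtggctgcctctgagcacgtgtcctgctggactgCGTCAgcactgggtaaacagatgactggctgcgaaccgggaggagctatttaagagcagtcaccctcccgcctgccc
Vip: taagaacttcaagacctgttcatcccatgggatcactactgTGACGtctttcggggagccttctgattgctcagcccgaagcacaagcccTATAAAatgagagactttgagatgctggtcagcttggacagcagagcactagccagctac
Cartpt: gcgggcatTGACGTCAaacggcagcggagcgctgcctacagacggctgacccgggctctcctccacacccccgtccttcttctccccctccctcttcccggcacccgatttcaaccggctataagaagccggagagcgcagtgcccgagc
Sst: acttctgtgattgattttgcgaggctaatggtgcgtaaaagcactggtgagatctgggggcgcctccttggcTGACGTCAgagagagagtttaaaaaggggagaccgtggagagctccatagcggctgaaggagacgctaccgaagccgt

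The windows lie at chr6:7554941-7555090 on the plus strand for Tac1, chr10:88090952-88091101 (plus) for Pmch and chr9:121495665-121495814 (minus) for Cck. Those of Vip, Cartpt and Sst lie at chr10:5639098-5639247 (plus), chr13:99900654-99900803 (minus) and chr16:23890815-23890964 (minus). In Tac1 and Cck the core sits at nearly the same distance from the start, with its first base at -43 and -47, and Tac1 has another at -197, outside the bases shown. The TATAAA of Pmch begins at -27 and the nearest one of Vip at -30. These matches describe the letters in the windows and say nothing about binding, which was not measured.

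Values are RMA expression summaries on the log2 scale, so that a difference of 1 is a doubling, and a probe set's brightness also depends on its own probes, so levels are compared between samples and not between genes. The filter value was 5.18, the median over all probe sets. The 11741 genes with a region mean at or above it were tested, and all 10 members were among them. The second probe sets of Tac1 and Pomc stayed below that value on every array, at 3.97 to 4.59 and 4.09 to 4.81, and carry no result. Differences were tested with limma, and a gene was called at a Benjamini-Hochberg adjusted p under 0.05 over all genes tested. Lack of overlap between the arrays of groups is given only as a description. How many of all tested genes lacked it was not counted. In a piece of tissue, fewer cells of a type and less RNA per cell cannot be told apart. The labels call the arrays of a group biological replicates but do not tie a replicate number to one animal across regions.

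The regional markers lay where their labels place them. Slc17a7, of cortical excitatory neurons, read 10.30 ± 0.06 (SD, n = 3) in saline frontal cortex against 8.05 ± 0.55 in striatum and 5.88 ± 0.67 in midbrain. The dopamine receptor Drd1 read 10.74 ± 0.06 in saline striatum and no more than 6.35 on any saline array of the other regions. Th, the rate-limiting enzyme of dopamine synthesis, read 8.97, 8.92 and 8.64 on the saline midbrain arrays and 8.09, 8.04 and 7.94 after MPTP, without overlap, a difference of -0.82 (SE 0.287) with an adjusted p of 0.133 by limma. None of 10 tested dopaminergic markers was called in midbrain, where 7 were lower and 3 higher by sign. Their median difference was -0.11, against 0.03 over all tested genes. Array medians ran from 5.14 to 5.21, and correlations within a group were 0.991 to 0.997, lowest among saline midbrain arrays.

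In saline animals the precursors were highest in different regions. Striatum had the highest Penk, Tac1 and Pdyn, frontal cortex the highest Vip, Cck and Npy, and midbrain the highest Cartpt and Pmch. Between striatum and frontal cortex 7 of the 10 members were called, 3 higher in striatum and 4 lower, where 44% of all tested genes were called. Between midbrain and frontal cortex 9 were called, 4 higher and 5 lower, against 51.3% of all genes, and between midbrain and striatum 8, 3 higher and 5 lower, against 58.2%. The regions differ in so many genes that a call by itself does not set the members apart, and the sizes of their differences are given below.

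The opioid precursor Penk, the source of the enkephalins, read 12.75, 12.73 and 12.72 in saline striatum, 8.43, 8.30 and 8.55 in frontal cortex and 8.63, 8.92 and 8.86 in midbrain. The striatal arrays stood far above all others, 4.31 (SE 0.0966, 19.8-fold) over frontal cortex with an adjusted p of 2.90e-20 by limma. Midbrain exceeded frontal cortex by 0.38 (adjusted p = 0.00201). Pdyn, the source of the dynorphins, read 7.34, 7.53 and 7.61 in striatum against 5.72, 5.60 and 5.94 in frontal cortex, 1.74 higher (SE 0.149, 3.33-fold), and 4.77, 4.86 and 5.36 in midbrain, where 2 of the 3 arrays lay below the filter value. Its order from striatum to frontal cortex to midbrain held without overlap of the arrays. Pomc, the source of beta-endorphin and the melanocortins, read between 5.52 and 6.12 on all 9 saline arrays, and no pair of regions was called, the largest difference being striatum and frontal cortex at -0.18 (95% interval -0.45 to 0.09, adjusted p = 0.296). The 8 pituitary markers on the array were all below the filter value.

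Tac1, from which substance P and neurokinin A are cut, read 11.43, 11.38 and 11.33 in saline striatum, 9.40, 8.95 and 8.92 in midbrain and 7.80, 7.56 and 8.02 in frontal cortex. The regions formed 3 steps without overlap. Striatum exceeded frontal cortex by 3.59 (SE 0.130) and midbrain exceeded it by 1.30 (2.46-fold). Averaging in the dim second probe set shrank these differences to 1.75 and 0.49, both still called.

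Among the interneuron peptides, Vip had the steepest regional difference. It read 9.65, 9.52 and 9.61 in saline frontal cortex, 5.84, 6.76 and 6.45 in midbrain and 4.96, 5.75 and 5.82 in striatum. The log2 difference of striatum from frontal cortex was -4.08 (SE 0.246, 16.9-fold), and midbrain exceeded striatum by 0.84 (adjusted p = 0.00522). That last difference was 0.57 without saline striatum replicate 1 and 0.64 without saline midbrain replicate 2, with adjusted p of 0.0568 and 0.0503. Npy, a peptide best known for its effect on feeding, was lower in each next region, from 10.65, 10.69 and 10.76 in frontal cortex to 10.00, 9.90 and 9.92 in striatum and 7.32, 8.06 and 8.10 in midbrain. The log2 difference of midbrain from frontal cortex was -2.88 (7.37-fold). Sst, the source of somatostatin, was the most even of these genes, at 10.74, 10.63 and 10.81 in frontal cortex, 10.55, 10.56 and 10.69 in striatum and 9.45, 9.80 and 9.95 in midbrain. Frontal cortex and striatum overlapped in it and were not told apart (-0.12, 95% interval -0.35 to 0.11, adjusted p = 0.405), while midbrain lay lower (-0.99 against frontal cortex).

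Cck, the cholecystokinin precursor, read 12.07, 12.07 and 12.12 in saline frontal cortex, 8.91, 9.30 and 9.65 in striatum and 9.60, 9.08 and 9.28 in midbrain. Frontal cortex stood above both other regions (striatum minus frontal cortex -2.80, SE 0.241, 6.98-fold), and striatum and midbrain overlapped (midbrain minus striatum 0.04, 95% interval -0.46 to 0.53, adjusted p = 0.912).

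The hypothalamic peptide Pmch, which encodes melanin-concentrating hormone, was below the filter value on every saline array of frontal cortex (4.71 to 4.76) and striatum (4.61 to 4.87). In saline midbrain it read 7.48, 5.64 and 5.49, so that 1 of the 3 arrays stood well above the others. The group mean of 6.20 ± 1.11 lay 1.02 above the filter value, so that midbrain was at least 2.03-fold above frontal cortex and striatum, taking them at that value (adjusted p = 0.000203 against frontal cortex by limma). Without saline midbrain replicate 1 that bound was 1.30-fold. The fitted difference from frontal cortex was 1.46, and 0.82 without the same array, and it remained past the threshold. Cartpt, the source of the CART peptide, read 9.42, 9.20 and 9.26 in midbrain, 5.99, 5.58 and 6.03 in frontal cortex and 5.20, 4.83 and 5.08 in striatum. Midbrain exceeded striatum by 4.26 (SE 0.150, 19.1-fold) and frontal cortex by 3.43 (10.7-fold), and frontal cortex exceeded striatum without overlap. The folds against striatum are less certain, since 2 of its 3 saline arrays lay below the filter value.

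**Figure D1:**
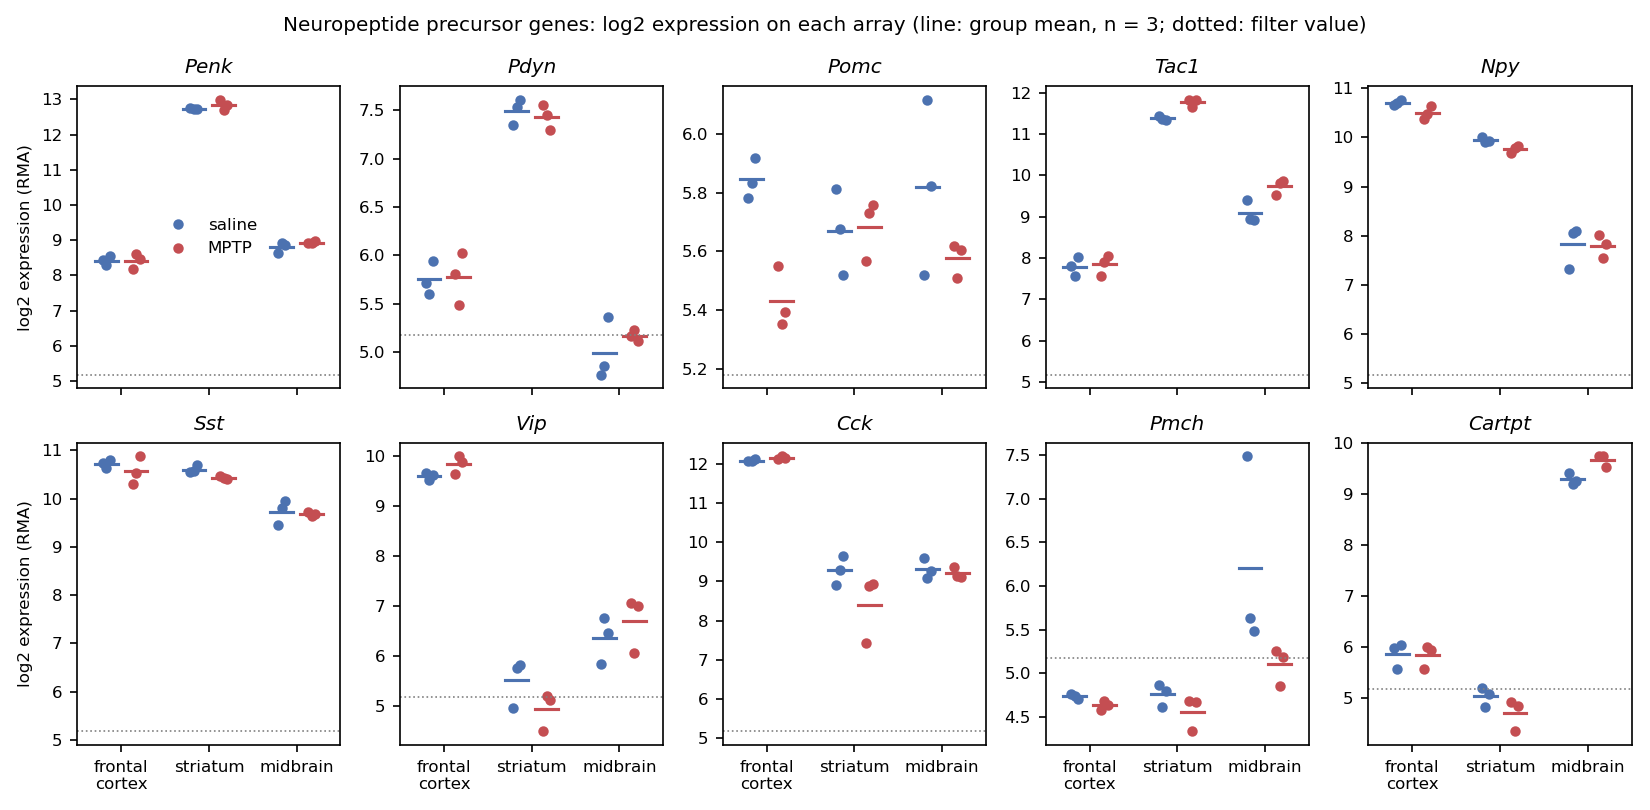
Log2 expression of the 10 neuropeptide precursor genes on each of the 18 arrays, one panel per gene, with the 3 regions along the horizontal axis and saline and MPTP arrays in different colours. Penk and Tac1 stood highest in striatum, Cck and Vip in frontal cortex and Cartpt in midbrain, and 1 saline midbrain array of Pmch, at 7.48, stood apart from the rest.

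**Figure D2:**
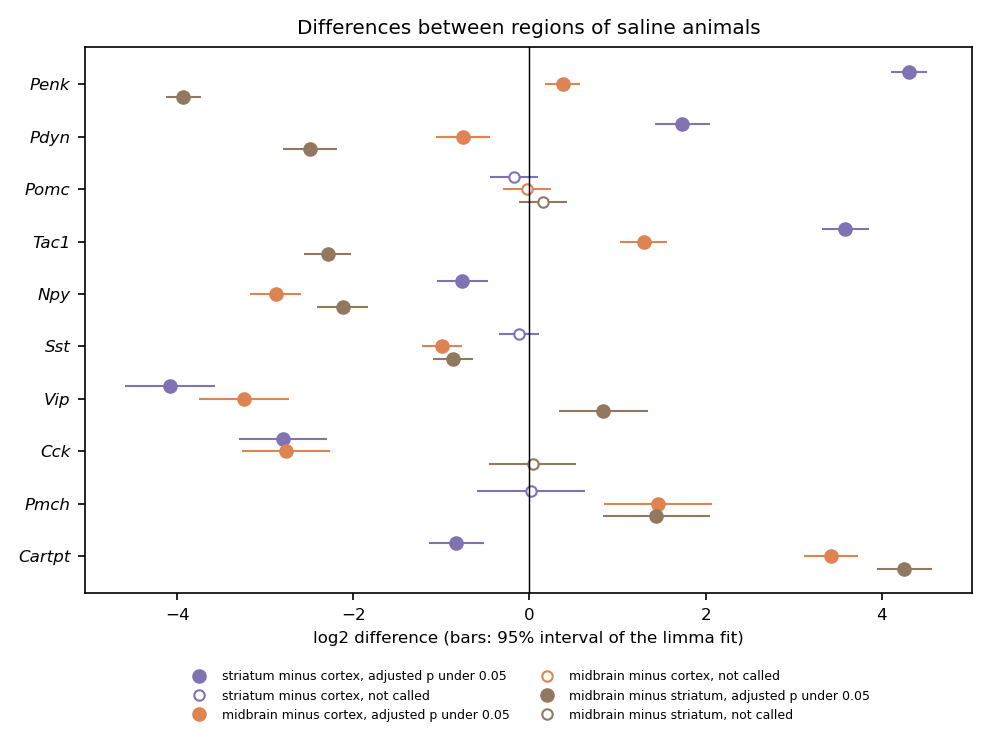
Log2 difference between regions of saline animals for each precursor gene, with the 95% interval of the limma fit, filled where the adjusted p was under 0.05. Penk reached 4.31 in striatum over frontal cortex, Vip -4.08 in the same comparison and Cartpt 4.26 in midbrain over striatum, while the 3 differences of Pomc were not called.

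For each member the tested genes with the most similar pattern were found by Pearson correlation over the 18 arrays, which share regions and processing. Penk was closest to Pde1b (r = 0.996), a phosphodiesterase of spiny neurons, and then Kcnab1 and Rarb. Pdyn was closest to Lingo3 (0.991), Gpr83 and Meis2, and Tac1 to Spock3 (0.992), Thsd7a and Ryr3. Cck was closest to Cckbr (0.988), the gene of its own receptor in the brain, then C1ql3 and Pgm2l1. Npy went with Nrgn (0.988), a postsynaptic protein of forebrain neurons, Kcnv1 and Kcnh1, Vip with Osbpl10 (0.983), Prr36 and Npr3, and Cartpt with Aard (0.993), Gprasp2 and Eif5a2. Sst was closest to Ankrd33b (0.967) and next to Egr1 (0.965), an immediate early gene, followed by Sertad1. Pmch was closest to Prkcd (0.963), Rgs16 and Tnnt1. Pomc, which varied little, reached only 0.809 with Dennd6b, followed by Rab3il1 and Csnk1d.

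After MPTP, Tac1 rose and Pmch fell in midbrain. They were 2 of the 10 members, where 2.54% of all tested genes were called (298 of 11741). That count was 955 without saline replicate 1 and 12 without MPTP replicate 3. By sign 5 members were higher and 5 lower, with a median difference of 0.05 against 0.03 over all tested genes.

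Midbrain Tac1 read 9.40, 8.95 and 8.92 in saline animals and 9.53, 9.81 and 9.87 after MPTP. Every MPTP array was above every saline array, and the highest saline array, replicate 1, came closest. The rise was 0.64 (SE 0.130, 1.56-fold, 95% interval 0.38 to 0.91) with an adjusted p of 0.0111 by limma. Without saline replicate 2, saline replicate 3 or MPTP replicate 3 it was 0.57, 0.56 and 0.58, with adjusted p of 0.0567, 0.0647 and 0.110, so that the call was lost each time, and without saline replicate 1, the highest saline array, it was 0.80 (adjusted p = 0.000487). Averaging in the dim second probe set gave 0.38 (adjusted p = 0.0649). Markers of spiny projection neurons, the striatal cells that hold Tac1, were higher by sign in 12 of 15 tested genes in midbrain, with a median of 0.06 and none called. Gad1, which makes GABA, rose in midbrain from 10.84 ± 0.15 to 11.32 ± 0.12 (0.49, adjusted p = 0.0189). It was the one called among 14 tested GABAergic interneuron markers, of which 9 were higher and 5 lower by sign, with a median of 0.05. The part of these markers in the rise of Tac1 was not tested.

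Midbrain Pmch read 7.48, 5.64 and 5.49 in saline animals and 5.26, 4.86 and 5.19 after MPTP. The groups did not overlap, but the saline mean rested on 1 array, and 1 of the 3 MPTP arrays lay below the filter value, with the others close above it. The fall was -1.10 (SE 0.296, 2.14-fold, 95% interval -1.71 to -0.49), with an adjusted p of 0.0466 by limma, close to the threshold. Its SE pools the spread over all 6 groups, and saline midbrain spread far more widely than saline frontal cortex and striatum. Without saline replicate 1 the difference was -0.46 with an adjusted p of 0.0587. The call was also lost without each MPTP replicate in turn (adjusted p = 0.0890, 0.129 and 0.171), with no filter (0.0565), without the intensity trend (0.0909) and with probe sets averaged per gene (0.101).

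The same saline array was highest for the genes most like Pmch. These genes were picked by their correlation with Pmch over the same arrays, so a high reading on that array follows largely from the choice. Prkcd, a protein kinase C, read 9.40 on it against 7.07 and 7.02 on the other saline midbrain arrays and 7.10, 6.12 and 7.11 after MPTP. Rgs16 read 7.51 against 5.96 and 6.20, and Tnnt1 8.0 against 6.39 and 6.99. Of 17 hypothalamic markers on the array 13 were below the filter value on all 18 arrays, including Hcrt, the precursor of the orexins and the other peptide typical of the lateral hypothalamus, at 4.54, 3.96 and 4.16 in saline midbrain. The mean log2 level of the 3 hypothalamic markers that were tested was 5.99, 5.88 and 5.98 in saline midbrain and 5.86, 5.96 and 5.86 after MPTP. The part that the makeup of saline replicate 1 plays in the difference of Pmch was not tested.

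Midbrain Cartpt read 9.42, 9.20 and 9.26 in saline animals and 9.74, 9.74 and 9.54 after MPTP, again without overlap. The difference of 0.38 (SE 0.150, 1.30-fold) did not pass the threshold (adjusted p = 0.186), but did when the midbrain arrays were fitted alone (adjusted p = 0.0477). Vip differed by 0.35 and Pomc by -0.24, both with overlapping arrays and adjusted p of 0.503 and 0.358. Midbrain Vip spread widely within each group, at 5.84, 6.76 and 6.45 and then 7.06, 6.05 and 7.0. The others, Pdyn (0.17), Penk (0.13), Cck (-0.11), Sst (-0.05) and Npy (-0.02), lay within 0.2 of 0 and overlapped between treatments.

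**Figure D3:**
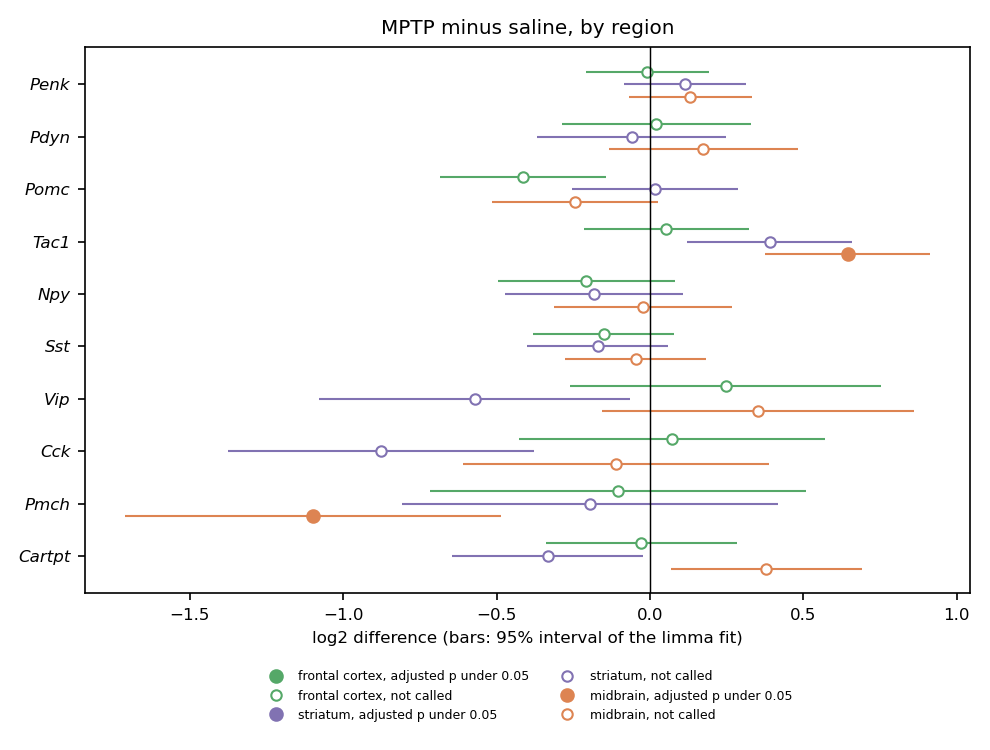
Log2 difference between MPTP and saline for each precursor gene in each region, with the 95% interval of the limma fit, filled where the adjusted p was under 0.05. Tac1 (0.64) and Pmch (-1.10) in midbrain were called, and Cck (-0.88) and Vip (-0.57) in striatum had the largest differences that were not.

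In striatum none of the 10 members was called by limma, where 2.1% of all tested genes were (247 of 11741, and 69 without MPTP replicate 1). An unadjusted p under 0.05 was reached by 1912 of the 11741 tested genes and by 4 members: Cck, Tac1, Vip and Cartpt. By sign 7 were lower and 3 higher after MPTP, with a median difference of -0.18 against -0.03 over all tested genes.

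Striatal Cck read 8.91, 9.30 and 9.65 in saline animals and 7.42, 8.88 and 8.93 after MPTP. The groups overlapped slightly and MPTP replicate 1 stood well below the other arrays. The difference was -0.88 (SE 0.241, 1.83-fold, 95% interval -1.37 to -0.38, adjusted p = 0.0578). It passed the threshold with the filter at the 75th percentile (adjusted p = 0.0499), with array weights (-0.83, 0.0304) and without saline replicate 1, MPTP replicate 2 or MPTP replicate 3 (-1.06, -1.11 and -1.13). Without MPTP replicate 1 it shrank to -0.38 (adjusted p = 0.210).

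Striatal Vip read 4.96, 5.75 and 5.82 in saline animals and 4.49, 5.21 and 5.12 after MPTP. These values lay around the filter value, the lowest was again MPTP replicate 1, and the difference was -0.57 (SE 0.246, adjusted p = 0.239). Levels of cortical excitatory markers moved with both genes over the striatal arrays. The mean log2 level of 12 such markers was 6.50, 6.66 and 6.93 in saline striatum and 5.84, 6.49 and 6.75 after MPTP, lowest on MPTP replicate 1, against 8.60 to 8.63 in saline frontal cortex. Of these markers 9 of 12 were lower by sign, none was called, and Slc17a7 read 7.50, 8.04 and 8.61 and then 5.04, 7.45 and 8.0. Their part in the differences of Cck and Vip was not tested.

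**Figure D4:**
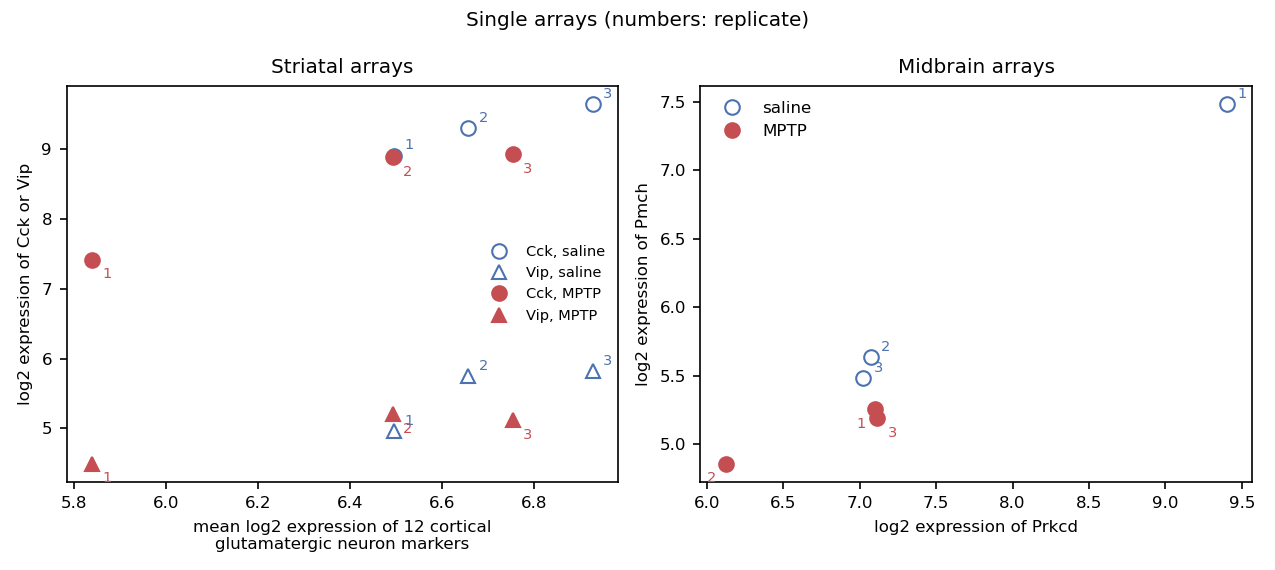
Left, log2 expression of Cck and Vip against the mean log2 level of 12 cortical glutamatergic neuron markers on the 6 striatal arrays, where MPTP replicate 1 is lowest on both axes (7.42 for Cck at a marker level of 5.84). Right, log2 expression of Pmch against Prkcd on the 6 midbrain arrays, where saline replicate 1 is highest on both (7.48 and 9.40), and open symbols are saline and filled symbols MPTP. Prkcd was picked for its correlation with Pmch over the same arrays.

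None of the spiny neuron peptides was called in striatum. Tac1 read 11.43, 11.38 and 11.33 in saline animals and 11.83, 11.65 and 11.83 after MPTP, all 3 above every saline array. The difference of 0.39 (SE 0.130, 1.31-fold, 95% interval 0.12 to 0.66) had an adjusted p of 0.118, and of 0.00828 when the striatal arrays were fitted alone. Penk read 12.99, 12.69 and 12.86 after MPTP against 12.72 to 12.75 in saline animals, a difference of 0.11 (95% interval -0.09 to 0.31, adjusted p = 0.600) with overlapping arrays. Pdyn read 7.56, 7.44 and 7.30 after MPTP, a difference of -0.06 (95% interval -0.37 to 0.25). Of 15 tested markers of spiny projection neurons none was called in striatum, and their median difference was -0.02.

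The striatal interneuron peptides Npy and Sst were each lower on all 3 MPTP arrays than on any saline array, by small amounts, and neither was called. Npy read 10.00, 9.90 and 9.92 and then 9.68, 9.77 and 9.82 (-0.18, adjusted p = 0.553). Sst read 10.55, 10.56 and 10.69 and then 10.47, 10.43 and 10.40 (-0.17, adjusted p = 0.474). Cartpt read 5.20, 4.83 and 5.08 and then 4.92, 4.35 and 4.84 (-0.33, adjusted p = 0.266), below the filter value on 5 of these 6 arrays. Pmch stayed below that value on every striatal array, and Pomc differed by 0.02.

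In frontal cortex none of the 10 members was called by limma, where 0.0681% of all tested genes were (8 of 11741). An unadjusted p under 0.05 was reached by 720 of the 11741 tested genes and by 1 member. That was Pomc, which read 5.78, 5.83 and 5.92 in saline animals and 5.55, 5.35 and 5.39 after MPTP, without overlap (-0.41, SE 0.131, adjusted p = 0.471). Npy was lower on all 3 MPTP arrays, at 10.38, 10.48 and 10.63 against 10.65, 10.69 and 10.76 (-0.21, adjusted p = 0.883). Cck was higher on all 3, at 12.13, 12.19 and 12.15 against 12.07, 12.07 and 12.12, by only 0.07 (95% interval -0.43 to 0.57). Vip read 9.65, 9.99 and 9.89 after MPTP (0.25, adjusted p = 0.927) and Sst 10.30, 10.54 and 10.88 (-0.15). Penk, Pdyn, Tac1 and Cartpt differed by -0.01, 0.02, 0.05 and -0.03, with overlapping arrays. Pmch was below the filter value on every cortical array.

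Whether a member responded differently in 2 regions was tested as the difference of the differences. None of the 10 members was called by limma in any of the 3 such comparisons, where 0.0596% of all tested genes were called for striatum against frontal cortex, 0% for midbrain against frontal cortex and 0.0681% for midbrain against striatum. Unadjusted p under 0.05 was reached by 3, 2 and 4 members, and by 910, 584 and 691 of the 11741 tested genes. The smallest p among the members was that of Cartpt, whose difference in midbrain exceeded that in striatum by 0.71 (SE 0.213, adjusted p = 0.432). The Tac1 response exceeded that of frontal cortex by 0.59 in midbrain (adjusted p = 0.615) and by 0.34 in striatum (adjusted p = 0.677), and midbrain and striatum differed in it by 0.26 (95% interval -0.12 to 0.63). For Pmch, midbrain differed from frontal cortex by -0.99 (adjusted p = 0.930). For Cck, striatum differed from frontal cortex by -0.95 (adjusted p = 0.547) and midbrain from striatum by 0.76 (0.817), and for Vip the corresponding values were -0.82 (0.609) and 0.92 (0.717). The calls of Tac1 and Pmch in midbrain are therefore not shown to be particular to that region.

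Of 28 listed receptors for these peptides 27 were on the array and 12 were tested, and none was called by limma in any region. The lowest p among them in striatum was that of Cckbr, the brain receptor for cholecystokinin, at 7.54 ± 0.21 in saline and 6.96 ± 0.49 after MPTP (-0.57, adjusted p = 0.0718), next to the Cck difference of -0.88 in the same arrays. That Cck difference was -0.38 without MPTP replicate 1, and Cckbr was the gene most correlated with Cck over the 18 arrays (r = 0.988). In frontal cortex the lowest p was that of Oprk1, the dynorphin receptor (0.37, adjusted p = 0.756), and in midbrain that of Vipr1, a receptor for Vip (0.23, adjusted p = 0.353).

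Of 21 tested genes for precursor processing and granules, 3 rose and 1 fell in striatum, 2 rose in midbrain and none was called in frontal cortex, where 2.1%, 2.54% and 0.0681% of all tested genes were called. Those that rose in striatum were Ctsl (0.38, adjusted p = 0.0053), a lysosomal protease also described in granules, Cpe (0.38, adjusted p = 0.0242), the carboxypeptidase that trims peptide intermediates, and Mme (0.62, adjusted p = 0.0242), the neprilysin gene, whose enzyme degrades enkephalins and substance P outside the cell. Chgb, a granin of the granule core, fell by 0.27 there (adjusted p = 0.0242). Mme also rose in midbrain (0.55, adjusted p = 0.0390), from 4.81 ± 0.16 to 5.37 ± 0.06, along with Cadps (0.33, adjusted p = 0.0452), which primes granules for release. The saline midbrain mean of Mme lay below the filter value and its MPTP mean little above it. The median over the list was -0.06 in striatum and 0.02 in midbrain, against -0.03 and 0.03 over all tested genes. In the same striatal arrays 10 of 14 tested markers of astrocytes and microglia, cells that also express Ctsl and Cpe, rose, and their part in these differences was not tested.

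Of 42 other listed precursor genes 31 were on the array and 16 were tested. Only Pnoc, the nociceptin precursor and a relative of Penk and Pdyn, was called among them, in striatum, where it fell from 5.27 ± 0.21 to 4.79 ± 0.15 (-0.47, adjusted p = 0.0323). Its saline mean lay just above the filter value and its MPTP mean below it. Pnoc was 1 of 16 in a region where 2.1% of all tested genes were called. In midbrain none was called, the lowest p being that of Ucn, the urocortin precursor (0.48, adjusted p = 0.115), which is made in the same Edinger-Westphal nucleus as Cartpt, and in frontal cortex that of Crh (0.61, adjusted p = 0.735).

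Activity-induced genes were also read, since several precursor genes respond to neuronal activity. Of 17 tested, 3 fell in striatum, Egr1, Egr2 and Egr4, with Egr1 at 11.89 ± 0.18 in saline and 11.34 ± 0.23 after MPTP (-0.55), and 1 rose in midbrain, Egr3 (0.56, adjusted p = 0.0107), where 2.1% and 2.54% of all tested genes were called. By sign 15 of the 17 were lower in striatum, with a median of -0.63, and 14 of the 17 were lower in midbrain, with a median of -0.25, against -0.03 and 0.03 over all tested genes. The mean log2 level of the 17 genes was 7.55, 7.90 and 8.01 in saline striatum. After MPTP it was 6.59, 7.41 and 7.54 there, well below the rest on MPTP replicate 1. MPTP replicate 1 was also the lowest MPTP array in frontal cortex (7.13, against 7.97 and 8.21) and in midbrain (6.05, against 6.36 and 6.34). None of the 17 was called in frontal cortex, where 13 were lower by sign and 4 higher. Their median there was -0.15, against 0.04 over all tested genes. Sst, which followed Egr1 across the arrays, differed by -0.17 in striatum, and that difference was not called.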

How the data were processed

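Total RNA was hybridised to Affymetrix mouse arrays, 1 per sample. The deposited values are log2 summaries per probe set made by the authors with RMA, per the submitters' processing notes (version not given in the sources used here). Their range, 2.48 to 14.2, gave the log base. RMA brings the arrays toward one distribution, so a shift of all genes could go unseen. The deposited values still differed in spread. Their interquartile ranges ran from 3.37 on saline midbrain replicate 2 to 3.65 on MPTP frontal cortex replicate 3. Of 45101 probe sets 34958 named 1 gene, 932 several and 9211 none listed, and only the first kind was used. Symbols were updated by Entrez ID (RefSeq, GRCm38.p6) for 34754, and 204 kept the array's symbol. Each gene was represented by its brightest probe set.

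Limma 3.58.1 (R 4.3.3) estimated 6 group means over all 18 arrays and an intensity trend, with Benjamini-Hochberg adjustment over 11741 genes per contrast. With 3 arrays per group, p-values set each difference against the spread between arrays. Limma draws that spread toward a trend over all tested genes, and the fit pools it over the 6 groups. SEs and intervals can therefore be too narrow for a group of wide spread and too wide for one of little spread. Members and lists were chosen with earlier results of these data known. All members were named. From each list up to 4 called genes of lowest p per contrast could be named, or else the one of lowest p, plus the 3 genes most correlated with each member and fixed tissue markers. The script was tested on simulated data. Alternatives were the filter, normalization, probe set rule, variance model, blocks and leaving out each array.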

Additional observations from a re-analysis of the deposited data

How the results depend on the processing

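Precision here is set by having 3 arrays in each group. Among the members' responses to MPTP, the calls of Tac1 and Pmch in midbrain were lost, and a call of Cck in striatum was gained, when single arrays were left out, as given above. The causes of these changes and of those below were not tested.

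Counts of called genes over the whole array moved with the processing. In frontal cortex the 8 became 5 with the filter at the 75th percentile, 4 with a second quantile normalization, 2 with array median centring, 1 with the mean over probe sets, 17 with every probe set tested, 0 without the intensity trend, 14 with array weights and 36 with the region's arrays alone. In striatum the 247 became 745 with the second quantile normalization, 134 with the mean over probe sets, 439 with every probe set, 162 without the trend and 487 with array weights. In midbrain the 298 became 728, 68, 879, 153 and 833 in that order. For the difference of responses between striatum and frontal cortex the 7 became 4 without a filter, 0 with the filter at the 75th percentile, 21 with the second quantile normalization, 4 with the mean over probe sets, 14 with every probe set and 24 with array weights. Between midbrain and frontal cortex the 0 became 1 with array weights. Between midbrain and striatum the 8 became 3 with the filter at the 75th percentile, 22 with the second quantile normalization, 14 with every probe set and 23 with array weights. For the saline regions every probe set gave 8768, 10098 and 11620 calls in place of 5165 (striatum, frontal cortex), 6026 (midbrain, frontal cortex) and 6835 (midbrain, striatum), more features being tested.

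Leaving out 1 array at a time gave 0 to 1 calls in frontal cortex, 69 to 291 in striatum and 12 to 955 in midbrain. The lowest were without striatal MPTP replicate 1 and midbrain MPTP replicate 3, and the highest without striatal MPTP replicate 2 and midbrain saline replicate 1. For the responses compared, it gave 3 to 10 calls for striatum and frontal cortex, 0 to 10 for midbrain and frontal cortex, and 7 to 14 for midbrain and striatum.

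Deviations of same-numbered saline and MPTP arrays correlated at -0.19 to 0.29, so that the numbers were not taken to pair the treatments. Between regions of one treatment the same-numbered arrays correlated at 0.22, 0.34 and 0.25 for saline frontal cortex and midbrain and at 0.17, 0.18 and 0.12 for MPTP striatum and midbrain, over 0.1 in each pair, and not in every pair of the other region combinations. With the replicate number as a block, 17 genes were called in frontal cortex, and among the members' responses to MPTP the call of Cck in striatum was gained (adjusted p = 0.0382). The replicate block changed no other call of a member, saline region comparisons included. A random block of arrays that share treatment and replicate number changed none. The labels do not say whether such arrays come from one animal.

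Only member differences near 0, none of them called, changed sign. In frontal cortex Penk was 0.0087 with array weights, Pdyn -0.0023 with the second quantile normalization and -0.036 with array weights, and Tac1 -0.091 with the mean over probe sets. Midbrain Pdyn was -0.011 with array weights. The striatal minus cortical response of Sst was 0.0092 with the second quantile normalization. In saline, Pmch in striatum minus frontal cortex was -0.012 with the second quantile normalization and -0.024 with centring, and Cck in midbrain minus striatum was -0.041 with array weights.

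With 1 array left out, the frontal cortex values ran from -0.10 to 0.11 for Penk, -0.11 to 0.16 for Pdyn, -0.062 to 0.19 for Tac1 and -0.17 to 0.10 for Cartpt. Striatal Pdyn ran from -0.13 to 0.0080 and Pomc from -0.060 to 0.087. In midbrain Npy ran from -0.28 to 0.11, Sst from -0.19 to 0.061 and Cck from -0.23 to 0.029. Striatal minus cortical responses ran from -0.22 to 0.048 for Pdyn, -0.035 to 0.094 for Npy, -0.15 to 0.13 for Sst and -0.16 to 0.022 for Pmch. Midbrain minus cortical responses ran from -0.069 to 0.32 for Npy, -0.037 to 0.26 for Sst and -0.15 to 0.43 for Vip. Midbrain minus striatal responses ran from -0.070 to 0.090 for Penk, -0.094 to 0.30 for Npy and -0.018 to 0.23 for Sst. In saline, Pmch in striatum minus frontal cortex ran from -0.034 to 0.095, Pomc in midbrain minus frontal cortex from -0.17 to 0.13 and Cck in midbrain minus striatum from -0.15 to 0.22.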
